A study of Mus musculus with 4 samples.

Results

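Granule and receptor genes of eosinophils, basophils and mast cells were followed in RNA sequencing of mouse cDNT cells, which are double-negative T cells, with neither the CD4 nor the CD8 coreceptor. The list had 9 genes, and 7 of them had a row in the deposited table of 24768 genes: Prss34, Prg2, Mcpt8, Epx, Cpa3, Gata2 and Fcer1a. Il5ra and Ms4a2 were not analysed here. They are textbook genes of these cells, chosen by their FPKM difference between the groups, which was already known, so their values are given as a description, with no test. The groups were Tbx21-KO cDNT cells and wild-type (WT) cDNT cells, with 2 libraries each. The gene Tbx21 codes for T-bet, which directs the type 1 programme in lymphocytes. The sample labels call the first group a knockout and the design text a knockdown. The labels give the genotype only, and no strain, age, culture or sorting step, nor whether the libraries of a group came from separate animals or cultures.

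Eosinophils, basophils and mast cells are granulocytes of type 2 immunity. Eosinophils store basic proteins and a peroxidase in their granules and depend on interleukin-5, whose receptor pairs a specific alpha chain with a beta chain shared with the receptors of interleukin-3 and GM-CSF. Basophils and mast cells carry the high-affinity IgE receptor and release histamine and serine proteases when it is cross-linked. GATA factors, with C/EBP factors, direct the development of these lineages from myeloid progenitors. T cells are a known source of the cytokines that act on them.

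Because Gata2, a GATA factor, is itself among the genes, the sequences before their start sites were searched for GATA words: AGATAA and, with another last base, AGATAG, or likewise TGATAA and, with another last base, TGATAG, on both strands. RefSeq (build GRCm38.p6) gave windows of 300 bases, 250 before to 50 after a start, for 6 of the 7 genes, in 7 entries. Such a word was found in 3 entries, those of Cpa3, Fcer1a and Prss34, and not in those of Epx and Mcpt8 or in either entry of Gata2. Of all 32851 windows of that length, 29.8% hold such a word. The 3 windows that hold it are shown 5′ to 3′, with the word in capitals; in Fcer1a it lies on the opposite strand, as TTATCT.
Cpa3 (chr3:20242132-20242431, minus strand): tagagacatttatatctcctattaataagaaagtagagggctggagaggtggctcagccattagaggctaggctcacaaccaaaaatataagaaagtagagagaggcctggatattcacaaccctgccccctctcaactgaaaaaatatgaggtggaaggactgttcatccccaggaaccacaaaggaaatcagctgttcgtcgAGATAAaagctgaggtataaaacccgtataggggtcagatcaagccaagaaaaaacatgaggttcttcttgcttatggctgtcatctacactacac
Fcer1a (chr1:173227180-173227479, minus strand): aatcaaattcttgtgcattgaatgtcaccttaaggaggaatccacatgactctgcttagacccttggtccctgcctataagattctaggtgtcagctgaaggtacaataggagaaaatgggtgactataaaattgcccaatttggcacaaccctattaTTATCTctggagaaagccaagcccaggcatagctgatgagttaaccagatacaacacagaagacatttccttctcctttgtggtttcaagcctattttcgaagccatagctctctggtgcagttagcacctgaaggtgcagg
Prss34 (chr17:25298144-25298443, plus strand): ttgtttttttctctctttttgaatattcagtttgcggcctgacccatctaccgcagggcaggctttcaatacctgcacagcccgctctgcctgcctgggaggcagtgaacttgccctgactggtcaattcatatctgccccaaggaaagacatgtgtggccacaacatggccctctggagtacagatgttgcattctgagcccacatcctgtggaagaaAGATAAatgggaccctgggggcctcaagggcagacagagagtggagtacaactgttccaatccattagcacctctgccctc
The word AGATAA begins 46 bases before the start of Cpa3 and 31 bases before that of Prss34, and its match in Fcer1a begins 92 bases before the start. The C/EBP word TTGCNNAA, searched on both strands, was found in the Fcer1a window alone, 118 bases before the start and with no overlap with the GATA word; 10.8% of all windows hold it. The word TTCNNNGAA, which STAT factors bind, was in none of the 7 entries and in 8.3% of all windows. A match of letters describes the window and is not evidence of binding.

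Levels are the authors' FPKM values, that is fragment counts divided by gene length and library depth, so genes can be compared per length. The values imply 23342535 and 24032741 counted reads in Tbx21-KO 1 and 2 and 24966954 and 24129896 in WT 1 and 2. Tbx21 itself was at 2.29 and 2.41 FPKM in Tbx21-KO, against 13.2 and 11.7 FPKM in WT, which leaves 18.8% of the WT mean (limma adjusted p = 8.21e-05). The T cell label was checked on 11 measured T cell genes, whose summed level was 840.5 to 869.7 FPKM in Tbx21-KO and 1240 to 1335 FPKM in WT, with none at 0. Of these, 1 was called higher and 7 lower in limma, against 30.1% higher and 23.0% lower of the 11013 genes tested. Markers of other cells moved with the group. The 12 neutrophil and precursor markers summed to 10509 to 10815 FPKM in Tbx21-KO and 9.69 to 12.3 FPKM in WT. Of these, 12 of 12 were called higher, against the same 30.1%, but 7 had a WT mean under 1 FPKM and entered the test only through Tbx21-KO. The 6 measured monocyte and macrophage markers summed to 420.8 to 448.6 FPKM in Tbx21-KO and 168.4 to 168.8 FPKM in WT. Nearly all of the WT sum came from Ly6c2, named after its values were seen. It was at 182.9 and 192.0 FPKM in Tbx21-KO, against 163.9 and 161.9 FPKM in WT. Lower sums were found for 9 erythroid and megakaryocyte markers, at 10.9 to 11.7 FPKM in Tbx21-KO and 1.30 to 1.96 FPKM in WT, and for 5 B cell markers, at 34.7 to 38.3 FPKM in Tbx21-KO and 6.32 to 7.08 FPKM in WT. The 7 progenitor markers summed to 15.3 to 15.6 FPKM in Tbx21-KO and 17.3 to 18.2 FPKM in WT, mostly from Kit, which was called lower. Both Tbx21-KO libraries lay above both WT libraries for 6 of these 7. Across the 11013 genes with a mean of at least 1 FPKM, this held for 43.7%. Of the 7 progenitor markers, 5 were under that mean and not tested. Mecom among them, named after its values were seen, had at most 1 read in any library. Hoxa9, at 2.79 and 2.65 FPKM in Tbx21-KO and 0 in both WT libraries, was called higher. It could enter the test only through Tbx21-KO. The part of these cells in the results that follow was not tested.

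**Figure D1:**
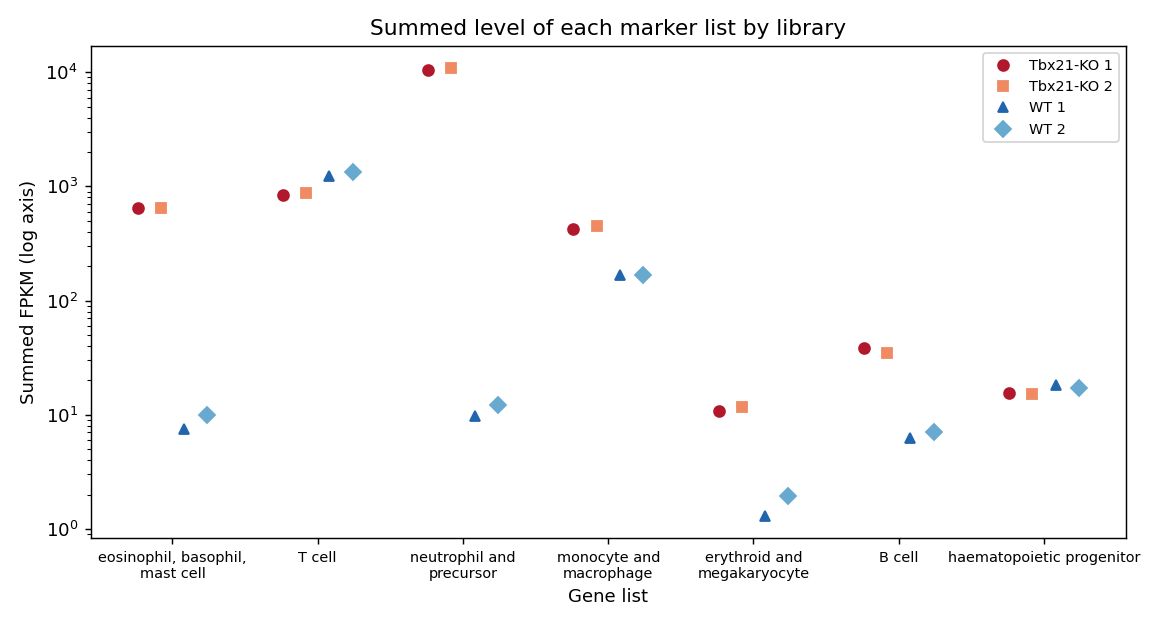
Summed FPKM (log axis) of the 7 eosinophil, basophil and mast cell genes and of 6 marker lists, by library. The 7 genes sum to 641.2 and 642.0 FPKM in Tbx21-KO, against 7.49 and 9.86 FPKM in WT, and the neutrophil list shows the widest gap between the groups.

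All of the 7 measured genes were far more abundant in each Tbx21-KO library than in either WT library. Together they held 641.2 and 642.0 FPKM in Tbx21-KO 1 and 2, against 7.49 and 9.86 FPKM in WT 1 and 2. The same sums correspond to 19905 and 20244 reads in Tbx21-KO and 240 and 296 reads in WT. In bulk RNA, fewer cells of a type and less RNA per cell cannot be told apart. The groups did not overlap, with Tbx21-KO higher, for 7 of 7 genes, a pattern found in 43.7% of the 11013 genes with a mean of at least 1 FPKM over the 4 libraries. The mean was at least 10-fold higher in Tbx21-KO for 7 of 7, against 2.77% of those 11013 genes. Since this contrast chose the genes, the counts carry no weight of their own. Of the 7, only Mcpt8, Cpa3 and Prss34 had a WT mean of at least 1 FPKM; the other 4 reached the mean of 1 FPKM through the Tbx21-KO libraries alone.

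**Figure D2:**
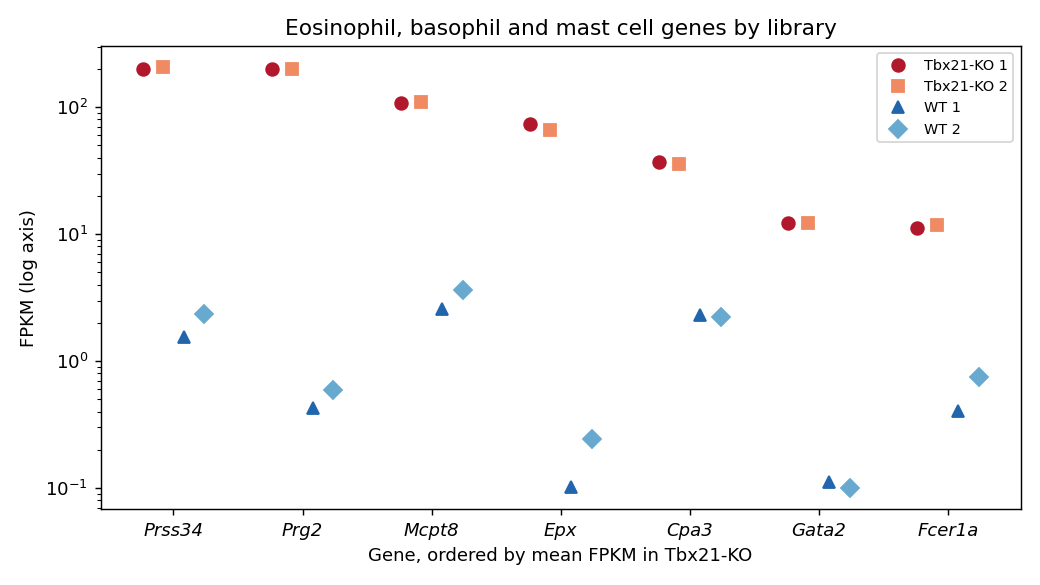
FPKM (log axis) of the 7 genes in each library, ordered by their mean in Tbx21-KO. The Tbx21-KO points run from 11.2 FPKM (Fcer1a) to 207.0 FPKM (Prss34), and the highest WT point is Mcpt8 at 3.61 FPKM.

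The eosinophil granule genes had the widest folds of mean FPKM, while on the log2(FPKM + 1) scale the difference of Prss34, at 6.13, lay above that of Epx, at 5.92. Prg2 (ENSMUSG00000027073, GRCm38 chromosome 2, 84980461 to 84983632) encodes major basic protein, the core protein of the eosinophil granule. It was at 199.1 and 199.7 FPKM in Tbx21-KO, against 0.430 and 0.593 FPKM in WT. The Tbx21-KO libraries lie within 1 FPKM of each other, and the WT values rest on 9 and 12 reads. The mean was 199.4 ± 0.416 FPKM in Tbx21-KO and 0.512 ± 0.115 FPKM in WT (SD, n = 2 each), a 389.5-fold difference and a log2 difference of 7.05 on the log2(FPKM + 1) scale. Of the 11013 genes, 7 had a larger log2 difference. Epx (ENSMUSG00000052234, chromosome 11, 87864000 to 87875536) encodes eosinophil peroxidase, which makes reactive halogen species. It was at 73.3 and 66.1 FPKM in Tbx21-KO, against 0.102 and 0.242 FPKM in WT. Its means of 69.7 ± 5.05 FPKM in Tbx21-KO and 0.172 ± 0.0989 FPKM in WT (SD, n = 2 each) are 404-fold apart, a log2 difference of 5.92. The WT values rest on 7 and 16 reads, with exact Poisson 95% intervals of 2.81 to 14.4 and 9.15 to 26.0 reads that cover counting error only. The WT libraries therefore cannot be separated from each other for Epx at this depth.

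Among the proteases, the basophil genes were the most abundant in Tbx21-KO. Prss34 (ENSMUSG00000056399, chromosome 17, 25298394 to 25300165) encodes mast cell protease 11, a tryptase-type serine protease of mouse basophils. It was at 200.2 and 207.0 FPKM in Tbx21-KO, against 1.55 and 2.35 FPKM in WT. Its means of 203.6 ± 4.84 FPKM in Tbx21-KO and 1.95 ± 0.568 FPKM in WT (SD, n = 2 each) are 104-fold apart, a log2 difference of 6.13. Mcpt8 (ENSMUSG00000022157, chromosome 14, 56082166 to 56085273) encodes mast cell protease 8, a marker protease of mouse basophils despite its name. It was at 108.0 and 109.2 FPKM in Tbx21-KO, against 2.57 and 3.61 FPKM in WT, where it was the highest of the 7 genes in both libraries. Its means of 108.6 ± 0.873 FPKM in Tbx21-KO and 3.09 ± 0.738 FPKM in WT (SD, n = 2 each) are 35.1-fold apart, a log2 difference of 4.76. Cpa3 (ENSMUSG00000001865, chromosome 3, 20215620 to 20242181) encodes carboxypeptidase A3, a granule enzyme of mast cells and basophils. It was at 37.3 and 35.8 FPKM in Tbx21-KO, against 2.32 and 2.21 FPKM in WT. Both groups are tight for this gene, with means of 36.5 ± 1.03 FPKM in Tbx21-KO and 2.27 ± 0.0782 FPKM in WT (SD, n = 2 each). The 16.1-fold gap, a log2 difference of 3.52, is the smallest fold of the 7. A microRNA gene inside Cpa3, Mir7007, also has a row, at 1.22 and 1.19 FPKM in Tbx21-KO and listed at 0 in both WT libraries, and reads of the overlapping genes cannot be told apart.

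The receptor chain and the transcription factor were the least abundant in Tbx21-KO. Gata2 (ENSMUSG00000015053, chromosome 6, 88193891 to 88207032), a factor that mast cells, basophils and early progenitors need, was at 12.1 and 12.3 FPKM in Tbx21-KO, against 0.111 and 0.0998 FPKM in WT. Its means were 12.2 ± 0.0968 FPKM in Tbx21-KO and 0.106 ± 0.00813 FPKM in WT (SD, n = 2 each), a 116-fold difference and a log2 difference of 3.58. The pseudocount of 1 compresses such a low WT level: the same log2 difference was 1.75 with a pseudocount of 5 and 6.80 with limma's voom on the recovered reads. Fcer1a (ENSMUSG00000005339, chromosome 1, 173221284 to 173227214) encodes the IgE-binding alpha chain of the high-affinity receptor. It was at 11.2 and 11.8 FPKM in Tbx21-KO, against 0.401 and 0.747 FPKM in WT. Its means of 11.5 ± 0.391 FPKM in Tbx21-KO and 0.574 ± 0.245 FPKM in WT (SD, n = 2 each) are 20.1-fold apart, a log2 difference of 3.00. Its log2 difference was 1.57 with a pseudocount of 5 and 4.35 with voom, and that of Epx was 3.85 and 8.72 in the same fits.

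Ordered by level in Tbx21-KO, the genes ran Prss34, Prg2, Mcpt8, Epx, Cpa3, Gata2 and Fcer1a. Prss34 and Prg2 differ by 4.24 FPKM there, less than the SD of Prss34, whereas each later gene lies apart from the one before it by more than the larger of their SDs. The order in WT was different: Mcpt8, Cpa3, Prss34, Fcer1a, Prg2, Epx and Gata2. In WT the libraries of Cpa3 and Prss34 overlap, as do those of Fcer1a and Prg2, and the means of Epx and Gata2 differ by 0.0668 FPKM, less than the SD of Epx. Set among the 24768 genes of each library, the 7 genes ranked between 192 and 4454 in Tbx21-KO and between 7575 and 15556 in WT, counting from the most abundant. The Tbx21-KO libraries differed by little for any of the genes, with Tbx21-KO 1 over Tbx21-KO 2 ratios of 0.953 to 1.11. The WT libraries were further apart, with WT 1 over WT 2 ratios of 0.423 to 1.12, and WT 2 was the higher one for 5 of the 7 genes.

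The proportions among the genes are given as a description, with no test. Ratios to Mcpt8 within a library do not depend on how libraries are scaled. Prss34 was 1.85 and 1.90 times Mcpt8 in Tbx21-KO, against 0.603 and 0.651 times in WT. Prg2 was 1.84 and 1.83 times Mcpt8 in Tbx21-KO, against 0.167 and 0.164 times in WT. Both genes thus exceeded Mcpt8 in Tbx21-KO and were below it in WT. Epx was 0.679 and 0.606 times Mcpt8 in Tbx21-KO, against 0.0399 and 0.0671 times in WT, and Gata2 was 0.112 times Mcpt8 in both Tbx21-KO libraries, against 0.0433 and 0.0276 times in WT. The mast cell and basophil genes Cpa3 and Fcer1a went the other way. Cpa3 was 0.345 and 0.328 times Mcpt8 in Tbx21-KO, against 0.905 and 0.613 times in WT. Fcer1a was 0.104 and 0.108 times Mcpt8 in Tbx21-KO, against 0.156 and 0.207 times in WT. In WT the ratios of Epx, Prg2, Gata2 and Fcer1a rest on 7 to 18 reads of each gene per library. Put as a share of the Tbx21-KO mean, the WT mean was 0.247% for Epx, 0.257% for Prg2, 0.864% for Gata2, 0.958% for Prss34, 2.85% for Mcpt8, 4.98% for Fcer1a and 6.21% for Cpa3.

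**Figure D3:**
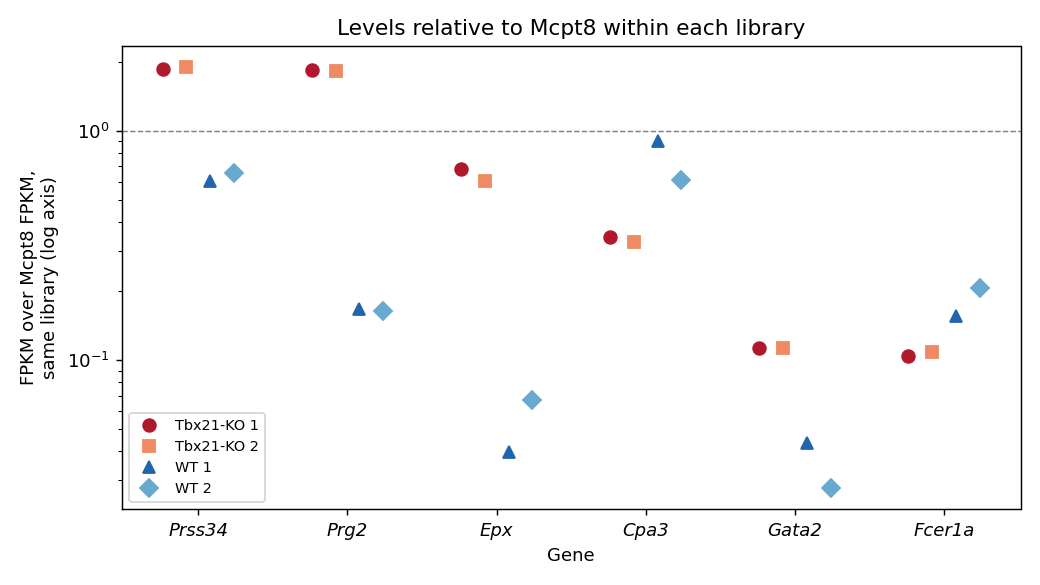
FPKM of 6 genes divided by the FPKM of Mcpt8 in the same library (log axis); the dashed line marks a ratio of 1. Prss34, Prg2, Epx and Gata2 have higher ratios in Tbx21-KO than in WT, and Cpa3 and Fcer1a have lower ones.

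Other textbook genes of these cells and pathways, listed with earlier results of these data known, were read against the whole table. Across the 11013 genes tested, limma called 30.1% higher and 23.0% lower in Tbx21-KO at an adjusted p under 0.05, which is 53.1% in all, and the median log2 difference was 0.04. Where a gene's WT level is under 1 FPKM, it could enter the test only through Tbx21-KO, which favours higher calls, so each count is also given for genes with a WT mean of at least 1 FPKM. Of the 10254 tested genes at or above that WT level, 26.2% were called higher and 24.7% lower. Log2 differences are those of log2(FPKM + 1), Tbx21-KO minus WT.

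**Figure D4:**
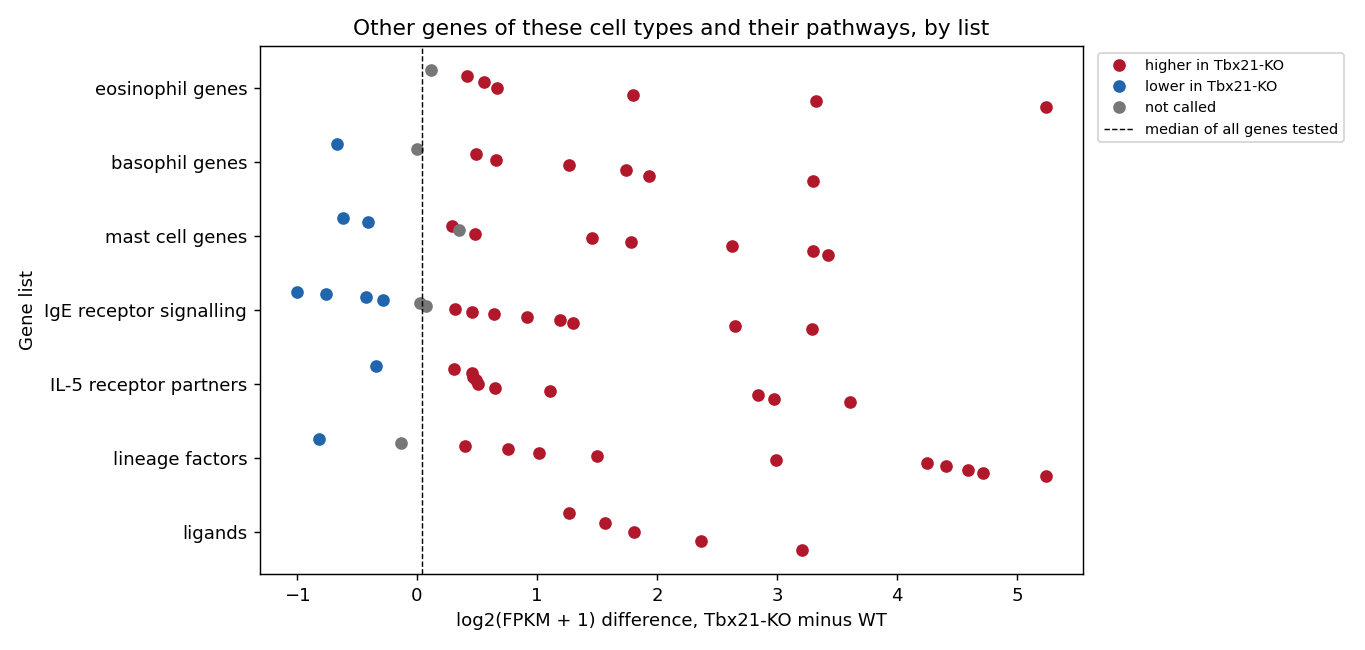
Log2(FPKM + 1) difference, Tbx21-KO minus WT, of each tested gene in 7 lists; each point is a gene, coloured by its limma call, and the dashed line is the median of all genes tested, 0.04. Eosinophil genes and lineage factors both reach up to Cebpe, a member of both lists, at 5.24, and IgE receptor signalling furthest to the left, down to Fcer1g at -0.997.

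Of 13 further eosinophil genes with a row, 7 were tested, 6 were called higher and none lower in limma. None was lower at an unadjusted p under 0.05 or with voom, but this carries little weight. Of the 7, 4 had a WT mean under 1 FPKM and entered the test only through Tbx21-KO, so they could not be called lower. The other 3, with a WT mean of at least 1 FPKM, could have gone either way and were called higher. The median log2 difference of the 7 was 0.67. Prg3, the paralogue and neighbour of Prg2, was at 9.80 and 8.68 FPKM in Tbx21-KO, against 0 and 0.0437 FPKM in WT (log2 difference 3.32, SE 0.09). It entered the test only through Tbx21-KO, so no p is given. Cebpe, a C/EBP factor of eosinophil and neutrophil granule maturation, was at 36.5 and 38.1 FPKM in Tbx21-KO, against 0 and 0.0335 FPKM in WT, the largest log2 difference of the list at 5.24. Ear6, an eosinophil-type ribonuclease, rose by 1.80 on this scale; Ear genes are near-identical copies among which reads can be split. Anxa1, S100a10 and Itga4, which many leukocytes express, rose by 0.67, 0.56 and 0.41, and the call of Itga4 was lost without either Tbx21-KO library and after quantile normalization. Cd101 was not called. Surface genes of mature eosinophils were low. Siglecf, an inhibitory lectin of mouse eosinophils, was at 1.69 and 1.19 FPKM in Tbx21-KO, against 0.0574 and 0.0149 FPKM in WT. Ccr3, the eotaxin receptor, was at 0.209 and 0.165 FPKM in Tbx21-KO, against 0.0979 and 0.0760 FPKM in WT. Neither reached a mean of 1 FPKM, so neither was tested.

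Of 9 further basophil genes with a row, 8 were tested, 6 were called higher and 1 lower, with a median of 0.96; 2 of the higher ones had a WT mean of at least 1 FPKM. Hdc, the enzyme that makes histamine, was at 11.8 and 10.8 FPKM in Tbx21-KO, against 0.313 and 0.195 FPKM in WT (log2 difference 3.30, SE 0.09). No p is given, since Hdc too entered the test only through Tbx21-KO. Cd200r3, an activating receptor of mouse basophils and mast cells, was at 3.00 and 3.18 FPKM in Tbx21-KO, against 0.0736 and 0.0693 FPKM in WT. Itga2b, an integrin chain of megakaryocytes and some basophils, rose by 1.75 and Il4 by 1.27. Cd69, an activation marker that T cells also express, was not called, with a log2 difference of 0.00. The gene called lower, named after its value was seen, was Il18rap, a chain of the interleukin-18 receptor that type 1 lymphocytes also carry, which fell by 0.66.

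Mast cell genes were mixed. Of 18 with a row, 10 were tested, 7 were called higher and 2 lower, with a median of 0.97; 3 of the higher and both lower ones had a WT mean of at least 1 FPKM. Cd63, a membrane protein of granules and endosomes in many cells, rose by 3.43 and Hdc, which is also in the basophil list, by 3.30. The tryptase genes Tpsb2 and Tpsg1 rose by 2.62 and 1.79, Tpsb2 standing at 5.55 and 5.47 FPKM in Tbx21-KO, against 0.0371 and 0.0767 FPKM in WT. Il1rl1, also called higher and named after its value was seen, rose by 0.29. Its call was lost with no filter, median-of-ratios scaling and quantile normalization, among other fits. Cma1, the chymase of connective tissue mast cells, was at 1.76 and 1.24 FPKM in Tbx21-KO and 0.597 and 1.39 FPKM in WT, groups that overlap, and was not called. The proteases Mcpt1, Mcpt2 and Mcpt4, named after their values were seen, had at most 3 reads in any Tbx21-KO library and were listed at 0 in WT. Kit, the stem cell factor receptor of mast cells and progenitors, fell, with 11.0 and 11.2 FPKM in Tbx21-KO, against 18.0 and 17.2 FPKM in WT (log2 difference -0.62, SE 0.05, adjusted p = 0.000616). Rab27b, a vesicle transport protein named after its value was seen, also fell, by 0.40, but its call was lost in 8 other fits.

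The partners of Fcer1a moved in both directions. Fcer1g, the signalling gamma chain that the IgE receptor shares with other Fc receptors and with receptors of NK and T cells, was at 94.2 and 96.4 FPKM in Tbx21-KO, against 179.5 and 203.6 FPKM in WT. Its log2 difference was -0.997 (SE 0.07, adjusted p = 0.000429), the opposite direction to the values of Fcer1a. Of 14 measured genes of IgE receptor signalling, 8 were called higher and 4 lower, with a median of 0.39, and 6 of the higher ones had a WT mean of at least 1 FPKM. Btk and Syk, tyrosine kinases downstream of the receptor in myeloid and B cells, rose by 3.29 and 2.65. Syk was at 8.76 and 8.80 FPKM in Tbx21-KO, against 0.578 and 0.549 FPKM in WT. The adaptor gene Gab2 and the calcium channel gene Orai1 rose by 1.30 and 1.19. Lat and Stim1 were not called, with differences of 0.08 and 0.02. The other genes called lower, named after their values were seen, were Lat2, Lcp2 and Inpp5d, which fell by 0.76, 0.42 and 0.28; Lcp2 and Inpp5d lost their calls after rescaling to the T cell markers, where Inpp5d turned to 0.10.

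Receptor chains that work with Il5ra and the interleukin-3 receptor were higher. Of 11 measured genes, 10 were called higher and 1 lower, with a median of 0.51, and all 11 had a WT mean of at least 1 FPKM. Csf2rb, the shared beta chain, was at 37.8 and 37.6 FPKM in Tbx21-KO, against 2.13 and 2.24 FPKM in WT (log2 difference 3.60, SE 0.05, adjusted p = 6.18e-06). Csf2rb2, its near-identical mouse copy, rose by 2.97, and reads can be split between them. Csf2ra, the GM-CSF receptor alpha chain, rose by 2.84 and was at 39.1 and 36.9 FPKM in Tbx21-KO, against 4.20 and 4.68 FPKM in WT. Socs3, a feedback inhibitor of cytokine signalling, rose by 1.11. The gene called lower was Jak2, the kinase of the beta chain, named after its value was seen, by 0.35; after rescaling to the T cell markers it turned to 0.04 and was not called. GM-CSF receptor chains are also carried by neutrophils and monocytes, whose marker sums were higher in Tbx21-KO. Whether such cells contributed to the receptor values was not tested.

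Among lineage factors, Cebpe, Spi1, Cebpa and Nfe2 had the largest differences. Of 15 factors with a row, 12 were tested, 10 were called higher and 1 lower, with a median of 2.24; 3 of the higher ones had a WT mean of at least 1 FPKM. Cebpa, which primes myeloid progenitors, was at 25.7 and 26.9 FPKM in Tbx21-KO, against 0.213 and 0.0629 FPKM in WT, a log2 difference of 4.59. Spi1, which encodes the myeloid factor PU.1, rose by 4.72 and Nfe2, a factor of the megakaryocyte and erythroid lines, by 4.41. Gata1, a factor of eosinophils, mast cells, erythroid cells and megakaryocytes, was at 1.09 and 1.18 FPKM in Tbx21-KO, against 0.230 and 0.323 FPKM in WT, under the mean of 1 FPKM needed for the test. Gata3, the GATA factor of T cells, was at 6.91 and 6.29 FPKM in Tbx21-KO and 7.43 and 7.19 FPKM in WT and was not called (adjusted p = 0.151). Cebpb, another C/EBP factor named after its value was seen, rose by 1.02. The factor called lower, also named after its value was seen, was Irf8, a factor of monocytes and dendritic cells that activated T cells also express, by 0.82.

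Of 10 ligand genes with a row, 5 were tested and 5 were called higher, none lower. None was lower at an unadjusted p under 0.05 or with voom, but here too the filter fixed most of this. Of the 5, 3 had a WT mean under 1 FPKM and could not be called lower. Only the other 2, with a WT mean of at least 1 FPKM, could have gone either way. The median log2 difference of the 5 was 1.81. Il13, a type 2 cytokine, was at 58.3 and 65.2 FPKM in Tbx21-KO, against 11.0 and 11.3 FPKM in WT (log2 difference 2.37, SE 0.07, adjusted p = 3.43e-05). Il9, a mast cell growth factor, was at 12.6 and 13.5 FPKM in Tbx21-KO, against 0.673 and 0.387 FPKM in WT. Csf2, which encodes GM-CSF, was at 14.5 and 15.1 FPKM in Tbx21-KO, against 3.75 and 4.97 FPKM in WT, and the eotaxin gene Ccl24 rose by 1.81. The genes of interleukin-5 and interleukin-3, whose receptors share the beta chain, had low levels. Il5 was at 0.976 and 1.14 FPKM in Tbx21-KO, against 0.365 and 0.539 FPKM in WT, values that do not overlap but were not tested. Il3 was at 0 and 0.132 FPKM in Tbx21-KO and 0.0637 and 0.198 FPKM in WT, at most 3 reads in any library. T cells, basophils and mast cells can all express some of these cytokines, and the source was not tested.

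Several of the 7 genes lie beside related genes, and their neighbours were read by position. Of 47 genes with a row that reach within 100 kb of a member, 23 were tested; 7 of them were called higher, or 30.4%, and 6 lower, or 26.1%, close to the shares of 30.1% and 23.0% in the whole table. The higher neighbours include relatives of the members. Mcpt8 lies in the chymase and granzyme cluster, where Ctsg, the neutrophil protease cathepsin G, was at 305.8 and 307.3 FPKM in Tbx21-KO, against 1.74 and 1.73 FPKM in WT, while Gzmd, Gzme and Gzmg, near-identical granzyme genes of activated lymphocytes, were not called. Epx lies beside Mpo, the neutrophil peroxidase, at 118.4 and 111.0 FPKM in Tbx21-KO, against 0.140 and 0.145 FPKM in WT; Lpo, the lactoperoxidase gene between them, was at 0.246 and 0.106 FPKM in Tbx21-KO, against 0.0256 and 0.0132 FPKM in WT. Prss34 shares its cluster with Tpsb2 and Tpsg1, given above, and with Prss28, which was at 1.62 and 1.57 FPKM in Tbx21-KO and listed at 0 in WT. Prg3 starts 7.75 kb from Prg2, while Ssrp1, Tnks1bp1 and P2rx3 on the far side of Prg3 were called lower. These neighbours were named after their values were seen. By blastn, the closest transcript of another gene to a member transcript was 64.1% to 79.6% identical over the matched stretch, and no match was found for Fcer1a, so no near-identical copy was found.

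**Figure D5:**
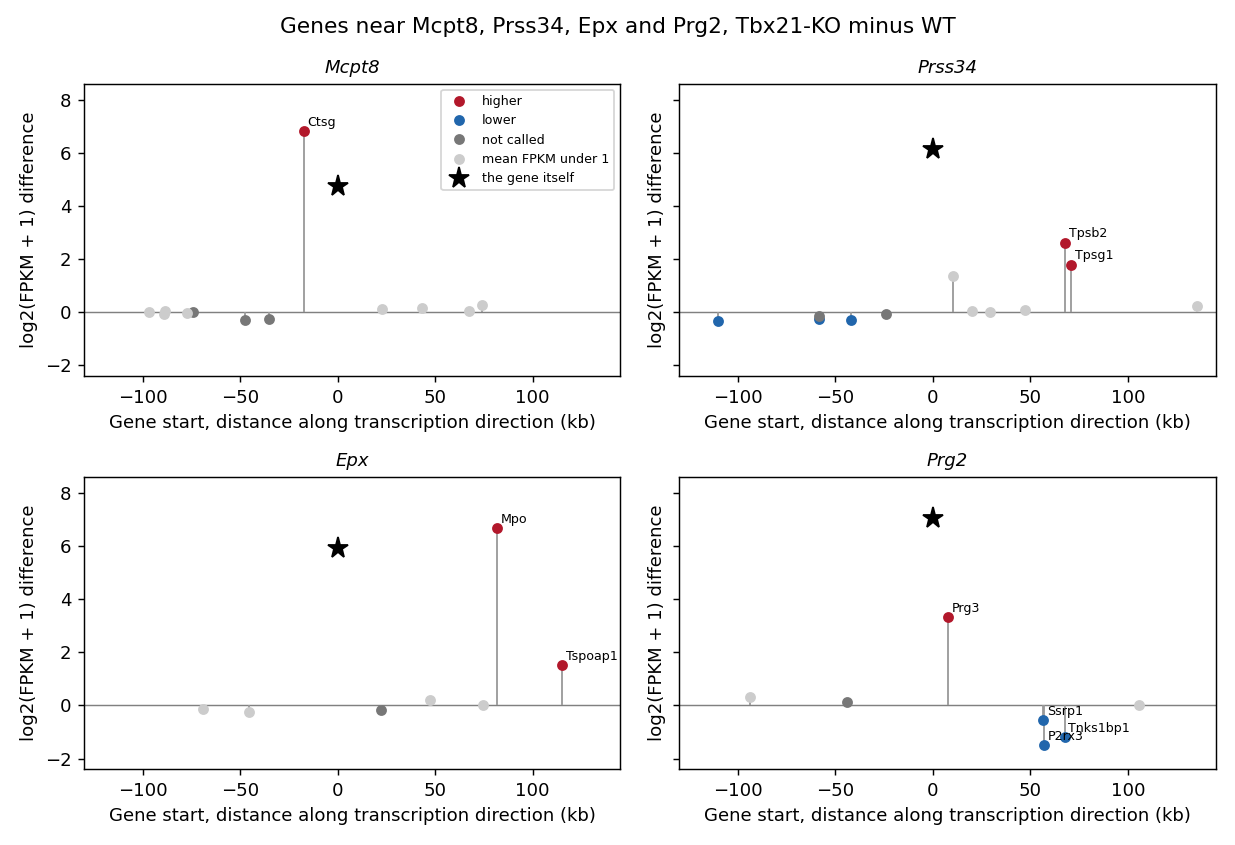
Log2(FPKM + 1) difference, Tbx21-KO minus WT, of genes near Mcpt8, Prss34, Epx and Prg2, against the distance of their start from that of the member, counted along the member's direction of transcription. The star is the member; among the neighbours, Ctsg at 6.81, Mpo at 6.66 and Prg3 at 3.32 stand highest.

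For each of the 7 genes the gene outside the list with the most similar pattern was found by the distance between centred log2(FPKM + 1) values over the 4 libraries, which mostly reflects the size of the gap between the groups. The nearest genes were Ctsg for Prg2 at a distance of 0.27, Cd177, a neutrophil surface protein, for Epx at 0.17, Gm5483 for Prss34 at 0.12 and Mcemp1, a membrane protein of mast cells and other myeloid cells, for Mcpt8 at 0.17. Gata2 was closest to Prss57, a serine protease of neutrophil granules, at 0.04, Cpa3 to the actin regulator gene Dstn at 0.05 and Fcer1a to Lum, which encodes the matrix protein lumican, at 0.08. With 4 libraries in 2 groups, many genes lie at short distances, so these are descriptions only.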

How the data were processed

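Per the labels' protocols, RNA from a spin-column kit went into SMARTER mRNA sequencing libraries. The authors deposited FPKM values per gene and library; the submitters' processing notes name GRCm38 and mm10. The aligner, the counter and any strand setting were not given in the sources used here. Of 24769 rows, the last is cut short and was dropped. IDs were matched to GENCODE M21 (GRCm38), 24720 with a match. With summed exon lengths, 96.7% to 97.3% of values under 20 reads per library came out whole within 0.1 read, which gave the implied read totals; these need not be the full depth. The libraries of a group differed by more than counting noise (median chi-square per gene 1.17 for Tbx21-KO and 1.26 for WT, against 0.455 from counting alone) and were kept as replicates; since no label says they are separate cultures or animals, p-values reflect only the spread of these libraries, possibly technical.

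The test used log2(FPKM + 1) in the 11013 genes with a mean of at least 1 FPKM, with limma 3.58.1 in R 4.3.3, an intensity trend and Benjamini-Hochberg adjustment over all these genes, at an adjusted p of 0.05. An exact permutation test of 2 libraries against 2 has a smallest two-sided p of 0.33 and was not used. The members and lists were chosen with earlier results of these data known, and the further genes are textbook genes. Named genes were all members, the 4 largest called differences and the 2 most abundant uncalled genes of each list (every called gene where at most 6 were called), and the defining receptor, ligand and factor genes; others are said to be named after their values were seen. Similar transcripts were searched with blastn 2.17.0. Alternatives were other pseudocounts, filters and scalings, no variance trend, a replicate block, voom on recovered reads and leaving out each library; a filter on WT levels was added after seeing the data.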

Additional observations from a re-analysis of the deposited data

How the results depend on the processing

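The log2 differences of the 7 genes kept their sign in every alternative run that included them. The filter on WT levels removed Prg2, Epx, Gata2 and Fcer1a. With group means at least 16.1-fold apart, a change of sign was hardly possible, so the kept sign is no measure of stability. Of the values, 35 moved by more than 1 SD between replicates and 66 did not. The filters, the variance trend and the replicate block cannot change a log2 difference, and leaving out 1 library cannot move it past 1 SD. The 66 therefore include values fixed in advance and are no measure of stability. The values spanned 5.21 to 8.56 for Prg2, 3.85 to 8.72 for Epx, 4.91 to 6.73 for Prss34 and 3.81 to 5.15 for Mcpt8. They spanned 2.52 to 4.00 for Cpa3, 1.75 to 6.80 for Gata2 and 1.57 to 4.35 for Fcer1a. With a mean of at least 5 FPKM, where fewer genes were tested, 2018 genes of the table were called higher, and 3 basophil, 3 mast cell and 3 ligand genes were called higher, with 1 mast cell gene lower. With a WT mean of at least 1 FPKM, which removes genes near 0 in WT, the higher calls were 3 eosinophil, 2 basophil, 3 mast cell, 2 ligand and 3 lineage factor genes, of 3, 4, 5, 2 and 5 tested, and 1 mast cell gene was lower; across all genes 2647 were higher and 2544 lower of 10395 tested. With no filter 11 eosinophil genes were higher. Rescaling to the T cell markers moved the median of all genes by 0.34 on the log2 scale and gave 7299 genes higher and 611 lower, with 1 mast cell, 2 IgE signalling and 0 IL-5 receptor genes lower. Median-of-ratios scaling moved it by -0.10 and quantile normalization by -0.13, and each called 2 lineage factors lower. With a pseudocount of 0.1, 1 mast cell gene was lower. The cause of the pseudocount and scaling changes was not tested. Leaving out each library in turn gave 2391 to 3036 genes higher and 1726 to 2225 lower, 5 to 6 eosinophil, 6 to 7 mast cell and 9 to 10 IL-5 receptor genes higher, and 1 to 2 mast cell genes lower. The labels do not say whether same-numbered libraries were prepared together. The deviations of these libraries from the group means correlated at -0.02 across genes. With 2 libraries per group, this cannot show whether they share a batch or preparation. With the replicate block 3245 genes were higher and 2482 lower, and 1 mast cell gene was lower. Genes with few WT reads, such as Epx, are limited by depth.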
